A study of Mus musculus with 16 samples.

Results

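The question was which genes red cell precursors transcribe differently when the transcription factor KLF1 is switched on, and which of those genes carry KLF1 nearby. Newly made RNA of K1-ER cells, which hold an inducible KLF1, was compared with that of parental K1 cells, which have none. Every gene of the deposited table was taken, 1556 of 1556, and each was marked by whether the KLF1 peak list names it as the nearest gene of a peak. K1 is an immortalized line of mouse erythroblasts null for KLF1. The K1-ER cells are K1 cells with a transgene for KLF1-ER, a fusion of KLF1 with the oestrogen receptor (ER), and their 2 libraries came from clone A and clone C. The 2 K1 libraries came from parental cells without a transgene. All 4 were induced with 200 nM 4-hydroxytamoxifen and labelled with 500 uM 4-thiouridine (4sU) for 1 h per the labels, although the header of the K1 column does not name tamoxifen. The KLF1 peaks came from K1-ER cells induced for 3 h, with 3 replicates pooled into 1 ChIP-seq library and 1 input library.

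KLF1 is an erythroid zinc finger protein that binds CACCC-type DNA sequences and is known mainly as an activator of globin, heme, membrane and cell cycle genes in maturing red cells. Without it red cell precursors fail to complete maturation. A fusion with the hormone-binding part of ER is held inactive in the cytoplasm until 4-hydroxytamoxifen is added, and 4sU enters only RNA made during the labelling, so the RNA read here is new RNA and not the standing pool.

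Levels are given in FPKM, the number of fragments scaled to transcript length and library size, as the authors deposited them with 1 value per group, so no spread between clones or libraries stands beside any of them and no test was run here. The read depth is unknown, since the table holds no counts. Each log2 ratio was computed from both FPKM values, with a lowest level of 0.1, called the floor here. A gene is said to have risen or fallen when its q value in the authors' deposited table is at most 0.05. The authors listed only genes that passed in at least 1 of their comparisons: the 788 rows that did not pass here all passed in K1-NanER, the line with the Nan mutant of KLF1 that shares the K1 controls. Clones were compared with a parental line, so activation of KLF1 and other differences of the clones cannot be told apart, nor can fewer cells of a type and less RNA per cell.

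Erythroid markers were looked up, but a change in their level cannot check the labelled cell type. Of 15 such markers 6 have a row, and all 6 rose: Ahsp, Alas2, Epor, Ermap, Slc4a1 and Tfrc. Among 69 markers of platelets, mast cells, myeloid, lymphoid and stromal cells 2 have a row, namely Vwf, with 5.13 FPKM in K1 against 2.88 in K1-ER without passing, and the B cell gene Cd79a, which rose from the floor to 1.41 FPKM. A missing row says nothing of a gene's level, because unchanged genes were not listed. Klf1 has no row and was not analysed here. Esr1, which encodes the oestrogen receptor (chr10:5342780-5734495, mm9), rose from 2.41 to 136 FPKM without a peak, and whether this RNA came from the fusion was not tested.

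New transcription went up far more often than down when KLF1-ER was active. By the q values of the authors' deposited table, 768 genes passed, which is 49.4% of the rows: 589 rose (37.9%) and 179 fell (11.5%). The median log2 ratio was 0.72 over all rows, 1.89 over genes that rose and -1.51 over genes that fell. Among the rises 72 genes had their K1 level at the floor and among the falls 25 had their K1-ER level there, and without such rows the medians were 1.75 and -1.41. Between K1 and K1-ER, the median level went from 8.33 to 32.3 FPKM for genes that rose. For genes that fell it went from 29.3 to 10.4 FPKM. The calls rest on these same levels, so a lower start among rises than among falls is favoured by the call itself. Whether the genes differ in starting level apart from the call was not tested. Just inside the threshold lay Mettl2, Nbeal2 and Tada1, each with q = 0.0498, and just outside lay Gpx1, Usp32 and Pphln1, with q = 0.0504, 0.0516 and 0.0526, in the authors' deposited table.

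**Figure D1:**
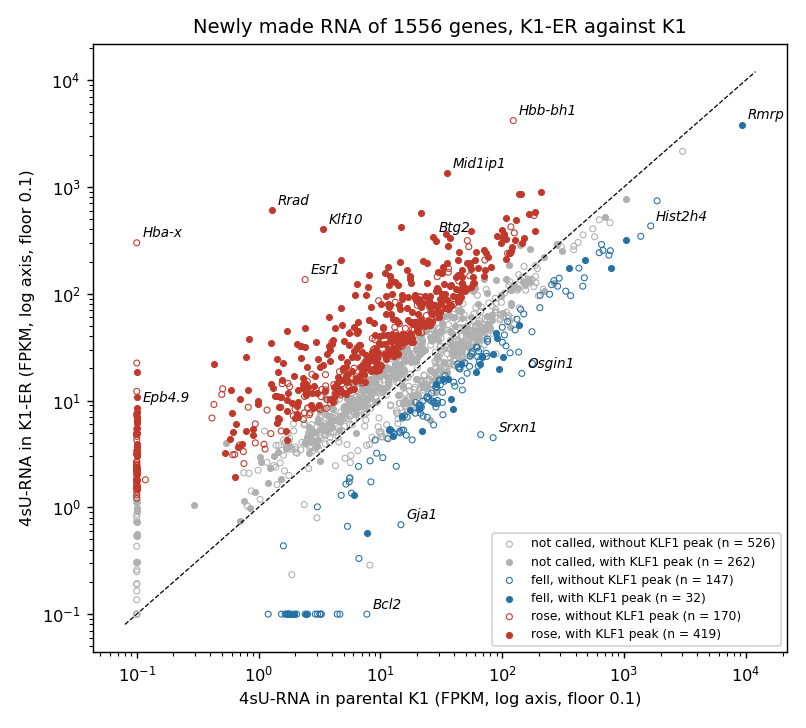
Level of each of the 1556 genes in K1 (x axis) and K1-ER (y axis), both in FPKM on log axes with a floor of 0.1, 1 point per gene. Red genes rose, blue fell and grey did not pass; filled points have a KLF1 peak, and 419 of the 589 red points are filled against 32 of the 179 blue ones.

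KLF1 peaks lay at most genes that rose and at few that fell. A peak named 419 of the 589 genes that rose, or 71.1% (95% Wilson interval 67.4 to 74.7). Among genes that fell it was 32 of 179, or 17.9% (13.0 to 24.1), and among rows that did not pass 262 of 788, or 33.2% (30.0 to 36.6). The intervals cover counting error only, and the 3 do not overlap. Over all rows 713 genes (45.8%) had a peak, and over all protein-coding genes of RefSeq 16.1% did. A promoter peak was present at 41.8% of genes that rose, 4.47% of those that fell and 16.4% of those that did not pass. At least 2 peaks were present at 33.1%, 5.03% and 7.74%.

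Read from the side of binding, the share of genes that rose increased with the number of peaks. It was 20.2% of 843 genes without a peak, 50% of 448 genes with 1 peak, 72.3% of 173 with 2, 70.9% of 55 with 3 and 83.8% of 37 with 4 or more. The intervals for 2, 3 and 4 or more peaks overlap each other. Falls went the other way between no peak and 1: 17.4% of genes without a peak fell, against 5.13% of genes with 1 peak (3.45 to 7.59). Without a peak rises and falls were nearly balanced, with 170 and 147 genes.

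Where the peak lay and how high it stood went with the share that rose. Of genes with a promoter peak 64.2% rose and 2.09% fell, of genes with an intron peak and none at the promoter 55.2% and 6.40%, and of genes with peaks only elsewhere 48.0% and 8.66%. The intervals of the shares that rose were 59.3 to 68.9, 48.3 to 61.9 and 39.5 to 56.7, so those of neighbouring classes overlap. Fold enrichment is the ratio of ChIP to input reads that the authors list for each peak. When genes with a peak were ranked by that of their highest peak and split into 4 bins of equal size, 39.7% rose in the lowest bin, 50.6% and 65.2% in the next bins, and 79.8% in the highest. The highest bin began at a fold enrichment of 200.6. Over all peaks the median fold enrichment was 88.8 at promoters, 72.35 in introns and 71.4 at distal places, so place and height were not separated.

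**Figure D2:**
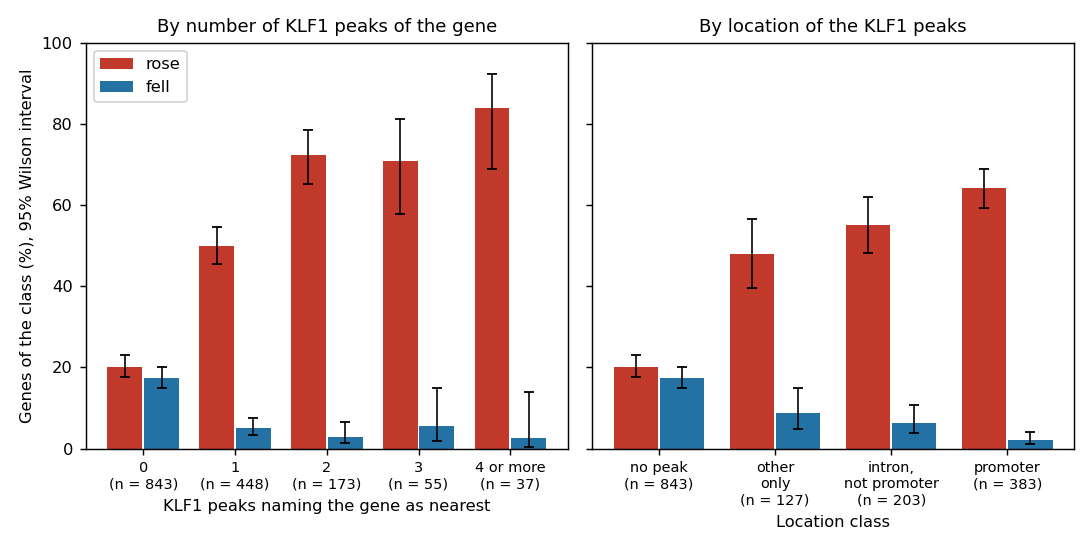
Share of genes that rose (red) and fell (blue), in percent of each class, by the number of KLF1 peaks of the gene (left) and by where they lie (right); bars carry 95% Wilson intervals and n is the number of genes. The red bars go from 20.2% without a peak to 83.8% with 4 or more, and from 48.0% with peaks only elsewhere to 64.2% with a promoter peak.

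Over all 1556 rows the rank correlation of the log2 ratio with the number of peaks was 0.41, and over the 713 rows with a peak that with the highest fold enrichment was 0.30. The median log2 ratio went from 0.11 without a peak to 1.86 with 4 or more. Within the genes that rose, whose range is narrowed by the call itself, the median was 1.88 with a peak and 1.91 without. Across the 419 genes that rose with a peak, the rank correlation with the highest fold enrichment was 0.04 and with the number of peaks -0.01. All 4 correlations are descriptions over genes of the same libraries. The share with a peak was 71.3% among rises of 1 to 2 on the log2 scale, 76.9% for 2 to 3, 82.4% for 3 to 4 and 53.6% above 4. Of the 84 genes above 4, 61 were at the floor in K1.

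The difference in binding between rises and falls was also seen within bins of gene length and level. The bins are wide and do not hold either constant. In the bin of shortest loci the median length was 3363 bp for rises and 864.5 bp for falls. In 5 bins of locus length with equal numbers of genes, 66.9% to 74.5% of genes that rose had a peak, against 13.9% to 21.4% of genes that fell. In 4 bins of mean level the shares were 53.5% to 81.9% and 14.0% to 22.2%.

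Distances were also measured without relying on the gene that the list names. The nearest KLF1 summit of any name lay inside the locus or within 1 kb of it for 69.9% of genes that rose, 12.8% of genes that fell and 31.7% of those that did not pass. The median distance to the edge of the locus was 73.5 bp, 70328 bp and 17583 bp. Of 298 genes whose nearest summit was over 100 kb away 10.4% rose and 24.5% fell.

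**Figure D3:**
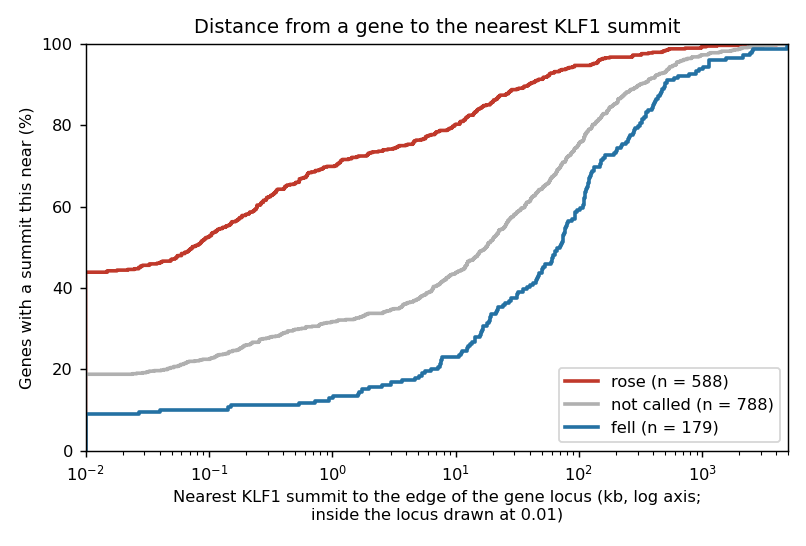
Cumulative share of genes (y axis, percent) with a KLF1 summit within a given distance of the edge of their locus (x axis, kb, log scale, summits inside the locus drawn at 0.01 kb), for genes that rose, fell or did not pass. At 1 kb the curves stand at 69.9%, 12.8% and 31.7%.

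The DNA under the peaks was described by the central octamer that the authors give for each peak. The octamers that KLF1 is known to prefer share the form CCNCNCCC with A or C, then A or G, at the open places. These 4 are shown because they are the binding sequence itself, each with its share of all 5326 peaks, the capitals marking the 3 bases that differ between octamers.
ccACGccc: 17.4% of peaks.
ccCCGccc: 16.4% of peaks.
ccACAccc: 10.4% of peaks.
ccCCAccc: 9.67% of peaks.
Together they made up 53.9% of all peaks, 51.5% (48.0 to 55.1) of the 745 peaks of genes that rose and 59.6% (45.3 to 72.4) of the 47 peaks of genes that fell. No octamer was given for 21.1%, 20.3% and 23.4% of these peaks, and the intervals of genes that rose and fell overlap. The peaks of genes that rose were higher, with a median fold enrichment of 92.1 against 54.3 for genes that fell and 75.6 for all peaks.

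The octamer differed with the place of the peak. At genes that rose, ccCCGccc made up 27.3% of promoter peaks, 15.0% of intron peaks and 12.5% of distal peaks, while ccACAccc made up 2.37%, 10.6% and 11.96%. Over all peaks the same octamers had 29.0%, 11.5% and 10.7%, and 3.01%, 12.6% and 15.2%, so the pattern was that of the whole list. Promoters are rich in G and C, and the part of base composition in this was not tested.

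Upstream sequences of 5 genes that rose are shown with the octamer of their own promoter peak in capitals. They were chosen for a rise with a promoter peak whose octamer occurs in the 250 bases before a RefSeq gene start. They cover a metabolic gene, a growth inhibitor, a Kruppel-like factor and 2 membrane genes. Btg2, Klf13, Aqp3 and Stom also had to be listed genes with an octamer that KLF1 is known to prefer. That they carry such octamers is therefore fixed by the choice. Mid1ip1 was taken for a large rise off the floor, and its octamer lacks the form CCNCNCCC. In all 8 windows met these rules, of which 5 are shown. The sequences are from RefSeq on build GRCm38.p6 while the peaks are on mm9, so the match is of letters and not of positions. RefSeq promoters were matched for 185 of the 246 genes that rose with a promoter peak. Of these 185, 105 (56.8%) held the octamer of their own promoter peak in the window, and the 5 shown were taken from them. The 185 were not limited to genes whose promoter peak has an octamer, and a gene without one could not match. Of the 253 promoter peaks of genes that rose, 59 (23.3%) have no octamer. No such share was computed for genes that fell or did not pass.
Mid1ip1, chrX:10717115-10717364, plus strand: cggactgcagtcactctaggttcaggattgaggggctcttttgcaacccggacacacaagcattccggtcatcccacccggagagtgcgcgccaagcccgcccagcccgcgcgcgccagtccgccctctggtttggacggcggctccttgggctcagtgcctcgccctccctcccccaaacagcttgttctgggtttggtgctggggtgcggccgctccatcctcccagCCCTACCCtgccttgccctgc
Btg2, chr1:134079156-134079405, minus strand: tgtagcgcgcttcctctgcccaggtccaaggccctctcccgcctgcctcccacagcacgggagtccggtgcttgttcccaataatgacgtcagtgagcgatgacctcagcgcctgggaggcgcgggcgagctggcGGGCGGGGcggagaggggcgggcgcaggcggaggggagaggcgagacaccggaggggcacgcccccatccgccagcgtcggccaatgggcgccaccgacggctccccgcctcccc
Klf13, chr7:63938916-63939165, minus strand: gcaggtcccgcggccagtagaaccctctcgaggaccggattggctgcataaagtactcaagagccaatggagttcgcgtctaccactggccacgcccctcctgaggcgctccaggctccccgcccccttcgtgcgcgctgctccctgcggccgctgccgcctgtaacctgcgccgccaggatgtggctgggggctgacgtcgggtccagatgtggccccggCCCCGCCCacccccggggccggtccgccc
Aqp3, chr4:41098184-41098433, minus strand: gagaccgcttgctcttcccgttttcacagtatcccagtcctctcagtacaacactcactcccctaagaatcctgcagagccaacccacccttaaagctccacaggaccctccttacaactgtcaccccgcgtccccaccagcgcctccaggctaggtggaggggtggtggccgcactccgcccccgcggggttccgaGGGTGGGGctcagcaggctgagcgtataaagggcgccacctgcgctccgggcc
Stom, chr2:35337010-35337259, minus strand: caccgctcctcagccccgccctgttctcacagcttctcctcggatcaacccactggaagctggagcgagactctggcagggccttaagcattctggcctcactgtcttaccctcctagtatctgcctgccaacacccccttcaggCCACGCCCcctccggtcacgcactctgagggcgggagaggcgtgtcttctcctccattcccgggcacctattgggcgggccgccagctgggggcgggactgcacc
Where a window holds several copies of the octamer, the one nearest the gene start is in capitals, and Klf13 has another copy in lower case. The marked octamer ended 13 bases before the start of Mid1ip1, 107 before that of Btg2 and 21 before that of Klf13. The octamer ended 45 bases before the start of Aqp3 and 97 before that of Stom. In Btg2 and Aqp3 it reads on the opposite strand, so the capitals show its complement. Of 32851 RefSeq windows of this length, 16.1% hold the octamer of Btg2 and Klf13 on either strand, 9.05% that of Aqp3, 4.79% that of Stom and 1.74% that of Mid1ip1. The general form CCNCNCCC is in 45.9% of windows and CACCC in 52.0%, both strands searched.

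Among the 12 steepest rises with a KLF1 peak 3 were measured above the floor in K1. Rrad, a GTPase of the Ras family that restrains calcium channels (chr8:107151966-107155221, mm9), rose from 1.29 to 603 FPKM, a log2 ratio of 8.87, with 1 peak at its promoter and a fold enrichment of 445. Klf10, a Kruppel-like repressor first found as a TGF-beta response gene (chr15:38224168-38230462), rose from 3.39 to 399 FPKM, with 7 peaks. Nyap1, an adaptor of PI3 kinase signalling, rose from 0.430 to 22.0 FPKM. The other 9 were at the floor in K1 and give no fold. They were Crip1, a LIM domain protein, which reached 18.4 FPKM, Tmsb10, an actin-binding thymosin, at 10.8 FPKM, and Epb4.9 (dematin), which bundles actin in the red cell membrane skeleton, at 8.54 FPKM with 5 peaks. Hs3st6, Phlda2, Rnd2, Pdzk1ip1, Gm7325 and the atrial myosin light chain Myl7 reached 5.48 to 7.86 FPKM. Of these 12 genes 8 had a peak at the promoter.

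The 6 largest gains in FPKM were those of Hbb-bh1, which has no peak in its name, Mid1ip1, Lmna, Junb, Ppp1r15a and Rrad. Mid1ip1, which promotes fatty acid synthesis (chrX:10294491-10296828), went from 35.2 to 1351 FPKM, with a promoter peak of fold enrichment 309.8. Lmna, the nuclear lamin gene, went from 138 to 865 FPKM with 5 peaks, of which 4 lie in introns. Junb, an AP-1 subunit, went from 143 to 865 FPKM with 3 peaks, and Ppp1r15a, which restores translation after stress, from 210.1 to 904 FPKM with 1 peak.

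Among the genes that passed, the 6 with the most KLF1 peaks all rose, with ties broken by name. Their log2 ratios were 1.05 to 6.88, the highest being that of Klf10 with 7 peaks. Of all 37 genes with 4 or more peaks, 31 rose, 1 fell and 5 did not pass. 8430427H17Rik had 10 peaks and a log2 ratio of 1.15, and Irf2bpl had 9 peaks and a ratio of 1.05. Pim1, a survival kinase (chr17:29627990-29632404), had 6 peaks, the highest with a fold enrichment of 619 at its promoter, and went from 166 to 555 FPKM. Klf13 and the growth inhibitor Btg2 (chr1:135971442-135975732) also had 6, with log2 ratios of 1.64 and 3.64. Many peaks did not always go with a rise: Ank1, the ankyrin of the red cell membrane, had 4 peaks with 38.6 FPKM in K1 against 33.7 in K1-ER, and the glycine transporter Slc6a9 had 5 with 119.8 against 111.6 FPKM. The only fall among genes with 4 or more peaks was Mapre2, a microtubule-binding protein, with 5 peaks and 11.7 against 5.31 FPKM. These 3 were named after their values were seen.

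**Figure D4:**
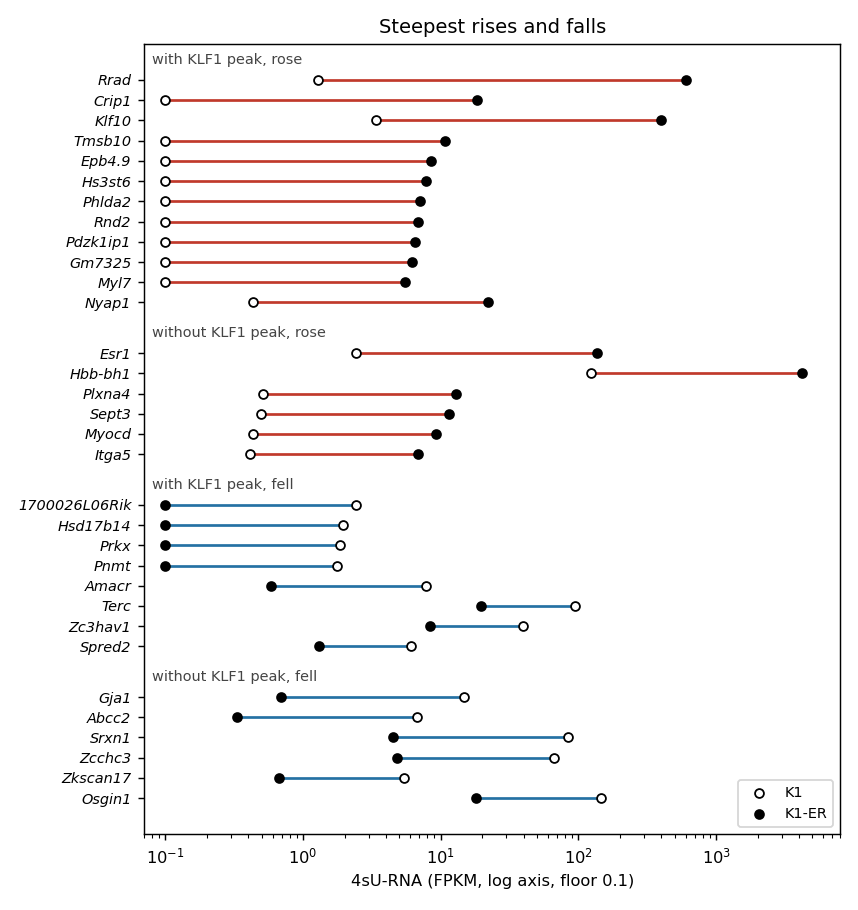
Level in K1 (open circles) and K1-ER (filled circles) in FPKM on a log axis with a floor of 0.1, for the genes with the largest log2 ratios, split by direction and by KLF1 peak. Sept3 is drawn without a peak but could not be matched by name; lines run right for rises and left for falls, and 9 of the 12 steepest rises with a peak start at the floor.

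Falls with a KLF1 peak numbered 32. The steepest was 1700026L06Rik, from 2.43 FPKM to the floor, with 1 promoter peak. Hsd17b14, a steroid dehydrogenase, the kinase Prkx and Pnmt, which makes adrenaline, also ended at the floor, from 1.96, 1.85 and 1.77 FPKM. Amacr, an enzyme of branched fatty acid breakdown, went from 7.81 to 0.581 FPKM with a promoter peak of fold enrichment 64.1. Terc, the RNA of telomerase, went from 94.6 to 19.6 FPKM, Zc3hav1, an antiviral protein that binds CpG-rich RNA, from 39.7 to 8.39 FPKM, and Spred2, an inhibitor of Ras signalling, from 6.05 to 1.299 FPKM. Of these last 3, Terc and Spred2 had no summit within 10 kb. Rmrp, the RNA of a nuclear ribonuclease, was the largest fall in level, from 9267 to 3832 FPKM, with a peak of fold enrichment 39.5 beside it.

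A rise without a named peak was seen in 170 genes, and KLF1 often lay close by under another gene's name. Of the 169 with a position on a mouse chromosome, 61 had a summit inside the locus or within 10 kb, 120 within 50 kb and 138 within 100 kb. Among the 147 falls without a peak the counts were 14, 47 and 74. Among the 526 rows without a peak that did not pass they were 102, 248 and 332, so a summit at such distances was common there too. Mafk, the partner of NFE2 at globin control regions, went from 118 to 423 FPKM and had a summit 1.63 kb away that the list names Tmem184a. Zbtb7b, a zinc finger factor, went from 29.3 to 144 FPKM with a summit inside its locus that is named for the overlapping Gm15417. In the red cell genes without a peak of their own, Slc25a37, the mitochondrial iron importer, had its nearest summit at 23.0 kb and the transferrin receptor Tfrc at 39.5 kb. The rows of Sept and March genes, 5 in all, 3 of which rose, cannot be matched, because 19 peaks carry a number in place of a gene name. A summit lies inside or within 1 kb of 4 of these 5.

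The steepest rises without a peak in their name, apart from Esr1 and genes at the floor, were Hbb-bh1, Plxna4, Sept3, Myocd and Itga5, of which Sept3 could not be matched to the peak list at all. Plxna4, a semaphorin receptor, went from 0.508 to 12.9 FPKM with its nearest summit 485.5 kb away. Myocd, a co-activator of muscle genes, went from 0.430 to 9.18 FPKM with its nearest at 504.7 kb. Itga5, a subunit of the fibronectin receptor, went from 0.414 to 6.85 FPKM with a summit at 6.83 kb. The steepest falls without a peak and off the floor were Gja1, a gap junction protein, at -4.42 on the log2 scale, the exporter Abcc2 at -4.33, Srxn1 at -4.23, Zcchc3 at -3.80, Zkscan17 at -3.02 and Osgin1 at -3.01.

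All 5 genes with a row in the list of globins and their chaperone rose, and 1 of them has a peak in its own name. They are the embryonic globins Hba-x, Hbb-bh1 and Hbb-y, the adult globin Beta-s and Ahsp, which binds free alpha globin. Hbb-bh1 (chr7:110990152-110991676) went from 123 to 4174 FPKM and Hba-x (chr11:32176600-32178115) from the floor to 299.8 FPKM. Hbb-y, another embryonic beta-like globin (chr7:111000268-111001721), went from 20.8 to 89.1 FPKM and carries 2 peaks. The nearest summit to Hbb-bh1 lies 16.1 kb away, is the same as the one nearest to Beta-s, and is named for Hbb-y with a fold enrichment of 248. The nearest summit to Hba-x lies 5.49 kb away at the promoter of Hba-a1, with a fold enrichment of 158. Globin genes are close copies, and how reads that fit several of them were counted is not given in the sources used here. In K1-NanER, next to the same K1 values, Hbb-bh1 was at 418 FPKM, Hba-x at 281 FPKM and Hbb-y at 141 FPKM.

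In the paragraphs on gene lists, members outside the 4 with the largest called log2 ratios were chosen after their values were seen. The list counts are to be read against all rows, of which 37.9% rose and 11.5% fell. Over all rows 71.1% of the genes that rose had a peak. Genes of heme synthesis and iron rose in 10 of the 14 cases with a row (71.4%), none fell, and 7 of the 10 had a peak. The median log2 ratio of the 14 was 1.73, against 0.72 over all rows. Alad, which makes porphobilinogen, went from 6.51 to 54.2 FPKM and Slc25a38, the mitochondrial glycine carrier, from 59.4 to 208 FPKM with 3 peaks. The other 4 did not pass: Tfr2, the iron sensor, Ftl1, the ferritin light chain, Blvrb, which clears biliverdin, and Abcb6 had log2 ratios of -0.55, -0.44, -0.54 and -0.25, and 3 of these 4 had a peak.

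Of 15 red cell membrane and surface genes 12 rose (80%, against 37.9% of all rows) and none fell. All 12 had a peak, against 71.1% of all genes that rose. At q of at most 0.01 in the authors' deposited table, 7 of the 12 passed. The median log2 ratio of the 15 was 1.24. Gypc, a glycophorin that ties the membrane to its skeleton, went from 12.5 to 42.2 FPKM with 4 peaks. Slc4a1, the anion exchanger band 3, went from 2.00 to 6.79 FPKM with 3 peaks, and the blood group gene Rhd from 14.8 to 35.0 FPKM with 3. Ank1 with 4 peaks, Dstn with 2 and Aqp9 without a peak did not pass, so 14 of all 15 genes had a peak. Of 23 genes with rows from a list of reported KLF1 targets, a list drawn from what is known of this factor, 21 rose, none fell and 18 of the 21 had a peak. Some of them, such as Epb4.9, Ahsp, Nfe2 and Btg2, are also members of other lists, so these counts are not separate.

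Genes listed under erythroid transcription and signalling mostly rose with a peak: 13 of 15 rose (86.7%, against 37.9% of all rows) and 11 of these had one. These counts include Pklr, an enzyme of glycolysis and not a regulator, which rose from the floor to 3.74 FPKM with 2 peaks. Nfe2, an activator at globin control regions, went from 8.07 to 148 FPKM with 3 peaks, and Lmo4, a LIM adaptor, from 4.76 to 73.1 FPKM with 1. Zbtb7a, a silencer of embryonic and fetal globin, went from 107 to 515 FPKM with 4 peaks, and Ldb1, the bridging factor of GATA1 complexes, from 44.9 to 149.5 FPKM with 2. The fall was Gab2, a signalling adaptor, from 5.22 to 1.65 FPKM without a peak. Of 9 Kruppel-like and Sp factors 5 rose (55.6%) and all 5 had peaks, among them Klf9 with 4, from 33.0 to 92.9 FPKM. Sp1 with 4 peaks and Sp3 with 1 did not pass, at log2 ratios of 0.73 and 0.91, nor did Klf2 and Klf6, both without a peak.

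Of 13 cell cycle genes 7 rose (53.8%), 6 of them with a peak, 1 fell, and Btg1, Ccne2, Ccng1, Cdkn2c and Rb1 did not pass. Ccnd3, the cyclin of late erythroid divisions, went from 36.0 to 278 FPKM with 4 peaks and Cdc25b, a phosphatase that starts mitosis, from 71.6 to 166 FPKM with 1. Cdkn2d, an inhibitor of the kinases that D cyclins activate, went from 6.37 to 43.8 FPKM. The list names it for 3 peaks, with summits at chr9:123836833, chr9:123839831 and chr9:21095680, while its row lies at chr9:123836860-123839607. These summits are too far apart to flank 1 gene, so its number of peaks is uncertain. Plk1, a mitotic kinase, fell from 142 to 71.2 FPKM and had no peak. Mxd3, which pairs with MAX against MYC, went from 4.73 to 209 FPKM with 3 peaks.

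Immediate early and stress genes rose in part. Of 7 immediate early genes 6 rose (85.7%, against 37.9% of all rows), all with 2 or 3 peaks. They were Nr4a1, Zfp36, Junb, Ier2, Fosl2 and Jund, at log2 ratios from 1.798 to 2.82. In the integrated stress response 5 of 10 rose (50%, against 37.9% of all rows), all with a peak, among them Ddit3, from 54.6 to 192 FPKM, and Atf4, its upstream factor, from 186 to 389 FPKM, while Slc7a11 fell and Chac1 and Herpud1 did not pass, at log2 ratios of -0.83 and -0.39. At q of at most 0.01 in the authors' deposited table, 2 of the 10 rose and none fell. Of 10 genes of p53 and apoptosis 5 rose, 3 of them with a peak (3 rose at the stricter q), and 1, the survival gene Bcl2, fell from 7.74 FPKM to the floor. Bbc3, which opposes it, went from 34.4 to 362 FPKM with 2 peaks. Among 5 feedback inhibitors of MAP kinase none rose and 2, Spred2 and Dusp16, fell, both with a peak, and neither passed at q of at most 0.01.

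Lists of TGF-beta and BMP signalling, lipid metabolism and ubiquitin genes were read against the 37.9% of all rows that rose. Of 9 TGF-beta and BMP genes 6 rose (66.7%): Tgfb1 itself, from 24.4 to 125 FPKM, the inhibitor Smad6, from 14.0 to 54.5 FPKM, and the target Id1, from 19.4 to 92.0 FPKM, each had 2 or 3 peaks, and Ski, Bmpr1a and Fam132b, the erythroid hormone erythroferrone, also rose. In lipid metabolism 5 of 9 rose (55.6%). Scd2, a fatty acid desaturase with 4 peaks and a fold enrichment of 967, went from 22.4 to 204 FPKM, and its relative Scd1 from 11.98 to 78.8 FPKM. Of 23 ubiquitin ligases 11 rose (47.8%) and 2 fell, with a peak at 9 of the 11. Of 7 deubiquitinases 4 rose (57.1%), each with 1 peak, but all 7 had a peak. At q of at most 0.01 in the authors' deposited table, 5 ubiquitin ligases rose.

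**Figure D5:**
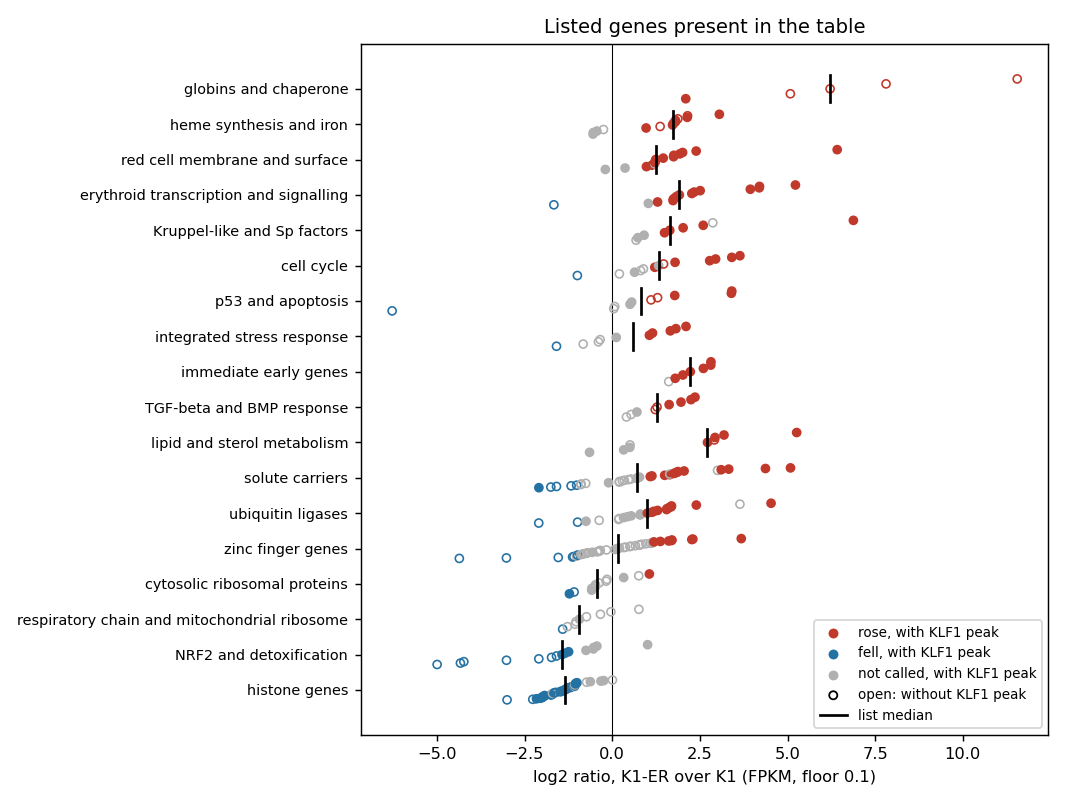
Log2 ratio of K1-ER over K1 (x axis) for each listed gene with a row in the table, 1 line per list, 1 point per gene. Red rose, blue fell and grey did not pass; filled points have a KLF1 peak, and black bars mark list medians, which run from 6.21 for globins and their chaperone to -1.43 for NRF2 genes and -1.35 for histones.

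Core and linker histone genes were the largest listed group of falls. Of 38 with a row 29 fell (76.3%, against 11.5% of all rows), none rose and 37 were lower in K1-ER. Their median log2 ratio was -1.35, and 18 fell at q of at most 0.01 in the authors' deposited table. A peak was present at 4 of the 29, against 17.9% of all genes that fell. These were Hist1h1b, Hist1h2an, Hist1h2bb and Hist1h2bj, with fold enrichments of 39.2 to 104.6. Hist2h4 went from 1656 to 431 FPKM, Hist1h4d from 1868.5 to 740.0 FPKM and the linker histone Hist1h1b from 1037 to 319 FPKM. These genes are near-identical copies that are transcribed mainly in S phase, so values of single copies are uncertain, and the share of cells in S phase was not measured.

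Genes of the NRF2 response to oxidants and of detoxification also fell, 10 of 15 (66.7%, against 11.5% of all rows). None rose, and a peak was present at 2 of the 10, against 17.9% of all genes that fell. The median log2 ratio was -1.43. Srxn1, which repairs peroxiredoxins, fell from 84.2 to 4.49 FPKM, Nqo1, a quinone reductase, from 18.2 to 4.28 FPKM and Gsr, glutathione reductase, from 104 to 41.1 FPKM. The pentose phosphate enzymes Taldo1, from 107 to 32.4 FPKM, and Pgd, from 90.2 to 38.1 FPKM, fell as well. Gpx1, glutathione peroxidase, was the 1 member higher in K1-ER, at 141 and 284 FPKM with a promoter peak, and lay just outside the threshold. The nearest summits to Srxn1 and Osgin1 were 115 kb and 42.6 kb away.

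Few ribosomal and respiratory genes passed. Of 12 ribosomal protein genes 1 rose and 2 fell, and of 9 genes of the respiratory chain and mitochondrial ribosome none rose and 1, Ndufb7, fell, though 8 of the 9 were lower in K1-ER. Among 33 solute carriers 13 rose, 12 of them with a peak, and 5 fell, 1 of them with a peak. That is 39.4% and 15.2%, near the 37.9% and 11.5% of all rows. Of 43 zinc finger genes 8 rose (18.6%), 6 of them with a peak, and 6 fell (14.0%), all without, and at q of at most 0.01 in the authors' deposited table, 2 falls were left. Zfp28, whose peak has a fold enrichment of 1151, went from 1.45 to 18.6 FPKM.

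The genes that rose were also looked up in the table of Nan/+ against wild-type fetal liver at embryonic day 14.5, where each of the 793 rows had passed and 24.6% were lower in Nan/+. Of the 589 genes 64 were listed there, 25 lower and 39 higher in Nan/+, so 39.1% were lower (28.1 to 51.3). Among genes that fell 3 of 8 were lower in Nan/+ (37.5%), a share close to that of the rises, and among rows not called 7 of 30 (23.3%). With a KLF1 peak 22 of 50 were lower, and without one 3 of 14. Lower in Nan/+ were Epb4.9, at 84.8 FPKM in wild type and 7.98 FPKM in Nan/+, the water channel Aqp3, at 12.8 and 1.97 FPKM, and E2f2, at 94.3 and 16.1 FPKM, all in the authors' deposited table. Higher were Hba-x, Hbb-bh1 and Pdzk1ip1, the last with 13.2 FPKM in wild type against 303.7 in Nan/+. The livers give standing polyadenylated RNA of a whole organ after removal of globin RNA, and the cell lines new RNA, so the levels are set side by side only.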

How the data were processed

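The values are those the authors deposited. FPKM of newly made RNA stand as 1 value per group, with zero shown as 0.1, and log2 ratios, p-values and q-values beside them are the authors' own, per the file headers; the program that made them is not given in the sources used here. Build mm9, the aligner TopHat2 2.0.10 and the peak caller MACS 1.4.2 are credited to the submitters' processing notes. For each KLF1 peak the authors deposited the nearest gene within 300 kb, a location, a central octamer, a fold enrichment (ratio of ChIP to input) and a rank score. The fetal liver FPKM and q-values were deposited by the authors in the same form.

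Computed here were log2 ratios at a floor of 0.1, calls at q of at most 0.05, joins of genes with peaks by name, and summit distances to gene loci without regard to strand. They were made with Python 3.11.15, pandas 2.3.3, numpy 2.4.6, scipy 1.17.1 and matplotlib 3.10.9, with 95% Wilson intervals, by code tested on simulated data. Genes were named by rule: among called rows with a peak the 12 largest rises and 8 largest falls, without a peak and off the floor the 6 largest of each, the 6 with most peaks, the 6 rises and 4 falls largest in FPKM, the 4 largest called members of each list, Klf1 and Esr1, and 3 rows on either side of the threshold. The members and the 30 gene lists and 7 marker lists were chosen with earlier results of these data known. Left out were 225 peaks without a gene, and 19 peaks whose gene name had become a number. Ahsp has no mouse chromosome in the table and no distance. Nothing in the labels says that the K1 libraries are separate cultures. Near-identical copies and overlapping genes are uncertain, since the counting is not stated. Some items are not reported here.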

Additional observations from a re-analysis of the deposited data

How the results depend on the processing

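No paired analysis was possible because the table gives 1 value per group, and leaving out each replicate was not run for the same reason. No median changed sign, which was the only kind of reversal looked for. The medians of rises and falls could not do so, because the sign defines these classes. Calls use the deposited q, so a stricter q can only shorten the lists. At q of at most 0.01, 380 genes rose and 82 fell, and listed genes that fell went from 62 to 32. The share with a peak among rows not called was then 38.2%, and the share that rose was 44.1% with a promoter peak, 35.5% with an intron peak, 33.1% elsewhere and 11.5% without a peak, and by number of peaks 11.5%, 33.5%, 46.8%, 52.7% and 62.2%. The median log2 ratio was 1.72 for rises and -1.40 for falls at a floor of 1 FPKM, and 0.62 over all rows, 1.60 and -1.33 on log2(FPKM + 1). Without floor rows rises had a median of 1.75 and 74.7% had a peak. With peaks at or above the median fold enrichment only, 55.5% of rises, 7.82% of falls and 18.3% of rows not called had a peak. With promoter peaks only the shares were 41.8%, 4.47% and 16.4%, and with peaks that hold a central motif 62.1% of rises and 27.4% of rows not called. An alternative chosen after seeing the data, any summit inside or within 10 kb of the locus, gave 79.97% of rises and 43.7% of rows not called. Also added later, rows that also passed in K1-NanER gave 70% of rises and 19% of falls (rows not called cannot move, since all of them passed there), and leaving out Sept and March genes gave 71.5% of rises. Centring on the median lowers all ratios by 0.72 and by construction brings the share of rows above 0 from 67.7% to 50%. It cannot change calls made on q, and the lowest rise, 0.94, exceeds the shift. The cause of these shifts was not tested. Depth is unknown, so its limit on low genes is too.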
